A study of Mus musculus with 5 samples.

Results

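Ventral progenitor domain factors are the transcription factors whose combined expression divides the ventral neural tube into stripes of dividing cells. The set described here held 10 genes, Pax6, Irx3, Irx5, Dbx1, Dbx2, Nkx6-1, Nkx6-2, Olig1, Olig2 and Nkx2-2, chosen by name, of 19897 genes that had a matched probe. They were read by 12 probes of 26300 matched and 55681 mouse probes on each array. Total RNA of mouse embryonic stem cells (ESCs) and of cells taken at 4 later times on the way to motor neurons was measured, with 1 one-colour Agilent array per time point and 5 arrays in all. All samples were labelled male. The ES sample was wild type ESCs, taken before RA. Day2, Day3 and Day4 were embryoid bodies, floating aggregates of differentiating cells, after 8 h, 1 day and 2 days of retinoic acid (RA), and Day7 was motor neurons after 5 days of RA. According to the labels RA was given together with Sonic hedgehog (Shh), whereas the methods of the study name a smoothened agonist, SAG, and an ESC line that carries the motor neuron reporter Hb9::GFP as one of those differentiated. The treatment notes of the labels place RA and Shh between day 2 and day 5, a shorter span than the 5 days of RA in the name of the Day7 sample, and this was not resolved. The Day7 sample was also labelled as embryoid bodies, so its cells were not sorted as far as the labels say.

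In the embryo, Shh from the notochord and floor plate spreads dorsally through the neural tube. It represses class I factors, among them Pax6, Irx3, Dbx1 and Dbx2, and induces class II factors, among them Nkx6-1, Olig2 and Nkx2-2. Pairs of class I and class II factors repress each other, which leaves, from dorsal to ventral, the domains p0 (marked by Dbx1), p1, p2, pMN (Olig2) and p3 (Nkx2-2). Each gives rise to its own neurons, named V0, V1, V2, motor neurons and V3.

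Values below are log2 signals after background subtraction by the scanner software and quantile normalization, which gives all arrays the same distribution. They are compared between arrays for the same probe only. A probe whose spot passed the scanner's test for standing well above background is called detected. A difference of 2-fold (1 on the log2 scale) is called a rise or a fall. Each time point had a single array, so no spread between replicates and no p-value can be given. The only error at hand is that of the scanner's error model for single spots, which was 0.14 to 0.19 for the detected, brightest probes of the members except Dbx1 on Day2 (0.27) and Pax6 on Day7 (0.31), and covers technical noise within an array. The Day2 array stood apart from the others. On it 86.7% of the mouse probes were detected, against 57.5% to 65.7% on the others, and 66.7% of the 96 ERCC probes, designed for added control RNA foreign to the mouse, against 4.17% to 9.38%. Day7 was alone on a second slide, so in any comparison with Day7 the slide cannot be told apart from the time.

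Promoter windows from 250 bases before to 50 bases after the start of transcription were read from RefSeq tables of the build GRCm38.p6. They matched 8 members with 9 windows, 2 of them for Pax6, and none for Olig1 and Irx5. Windows of Olig2, Nkx6-1, Dbx1 and Nkx2-2 are shown because these genes mark pMN, the ventral domains together, p0 and p3 and followed different courses. Capitals mark matches on either strand to TATAAA, the TATA box, to CCAAT, the CCAAT box, to GACCACCC, the core of the sites of the Gli factors of Hedgehog signalling, to AGGTCA, the core of the sites of RA receptors, and to CANNTG, the E-box. The windows lie at chr16:91225300-91225599 on the plus strand (Olig2), and on the minus strand at chr5:101664662-101664961 (Nkx6-1), chr7:49636786-49637085 (Dbx1) and chr2:147186353-147186652 (Nkx2-2).
Olig2: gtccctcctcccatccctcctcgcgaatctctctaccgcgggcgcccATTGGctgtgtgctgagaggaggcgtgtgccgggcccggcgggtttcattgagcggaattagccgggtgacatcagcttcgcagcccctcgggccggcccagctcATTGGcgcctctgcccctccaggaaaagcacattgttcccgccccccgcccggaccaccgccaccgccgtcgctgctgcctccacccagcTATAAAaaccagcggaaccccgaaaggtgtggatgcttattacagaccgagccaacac
Nkx6-1: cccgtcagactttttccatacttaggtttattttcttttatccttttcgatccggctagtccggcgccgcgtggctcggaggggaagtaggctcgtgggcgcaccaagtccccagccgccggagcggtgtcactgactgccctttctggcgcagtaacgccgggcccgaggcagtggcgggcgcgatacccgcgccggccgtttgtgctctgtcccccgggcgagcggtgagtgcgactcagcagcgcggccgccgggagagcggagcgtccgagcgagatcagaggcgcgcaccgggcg
Dbx1: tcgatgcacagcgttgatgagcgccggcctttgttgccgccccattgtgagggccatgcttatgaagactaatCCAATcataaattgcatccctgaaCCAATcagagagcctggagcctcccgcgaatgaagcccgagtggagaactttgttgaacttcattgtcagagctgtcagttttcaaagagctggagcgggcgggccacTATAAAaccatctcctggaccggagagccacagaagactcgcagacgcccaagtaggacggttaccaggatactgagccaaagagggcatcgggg
Nkx2-2: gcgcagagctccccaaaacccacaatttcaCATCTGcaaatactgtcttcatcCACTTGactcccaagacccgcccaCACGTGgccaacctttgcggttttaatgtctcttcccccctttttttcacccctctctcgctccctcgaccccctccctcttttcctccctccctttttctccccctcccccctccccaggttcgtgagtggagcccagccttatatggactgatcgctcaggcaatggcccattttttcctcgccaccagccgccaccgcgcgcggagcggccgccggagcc

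Olig2 and Dbx1 each held 1 TATA box and 2 CCAAT boxes in these windows, Nkx2-2 held 3 E-boxes, and Nkx6-1 held none of the 5 motifs. TATAAA stood in 13.6% of 32851 promoter windows of the same length and CCAAT in 37.4%. No member window held GACCACCC or AGGTCA, which 0.807% and 16.3% of all windows held, and CANNTG was found in 72.3%. No match in a window overlapped another. The Nkx6-1 window was rich in CG dinucleotides, with 40 against a median of 7 over all windows, and the Olig2 window held 25. These matches describe letters only.

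Olig2, which encodes the basic helix-loop-helix factor that specifies pMN, stood at 10.34 in ES, 8.47 on Day2 and 7.87 on Day3, then 11.47 on Day4 and 7.35 on Day7. It was thus already high in ESCs, fell 5.54-fold by Day3 and reached its highest level on Day4, before it was low again on Day7. Its lowest array was Day7 after normalization and Day3, at 7.41 against 7.77, without it. From Day3 to Day4 it rose 12.2-fold (3.61 ± 0.21, scanner error), the 10th largest rise among 15626 genes with a value. It then fell 17.4-fold to Day7 (-4.12 ± 0.21), the 33rd largest fall among 16082 genes. Its Day4 level was 2.20-fold above that in ES, a rise that was 0.1 on the log2 scale without normalization between arrays. Because whole cultures were measured, fewer cells of a type and less RNA per cell cannot be told apart in this and all later falls.

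Olig1, its neighbour and close relative, stood at 12.28 in ES, 10.17 on Day2 and 8.01 on Day3, then 9.99 on Day4 and 7.78 on Day7. Its course resembled that of Olig2 in the fall to Day3, the return on Day4 and the low on Day7, but its highest level was in ESCs. From ES to Day3 it fell 19.3-fold, the 17th largest fall among 15203 genes. The rise from Day3 to Day4 was 3.96-fold, and the Day4 level stayed 4.87-fold under that in ES. It then fell 4.66-fold to Day7 (-2.22), a change that was -0.97 without normalization.

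Nkx6-1, the class II homeodomain factor of p2, pMN and p3, stood at 6.72 in ES, 7.28 on Day2 and 8.60 on Day3, then 12.73 on Day4 and 14.31 on Day7. Its level was higher on each array than on the one before. From Day3 to Day4 it rose 17.5-fold (4.13 ± 0.21), the 5th largest rise of all genes with a value. It rose a further 2.99-fold to Day7, so that Day7 was 193-fold above ES (7.59 ± 0.22), the largest rise from ES to Day7 among the members. The earlier rise from Day2 to Day3, 1.33, was 0.80 when arrays were aligned at their 75th percentile and 0.06 without normalization.

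Nkx6-2, a related repressor that acts in p1 of the mouse, stood at 6.84 in ES, 6.39 on Day2 and 7.37 on Day3, then 9.51 on Day4 and 9.21 on Day7. Of its steps only that from Day3 to Day4 passed 2-fold, with a 4.40-fold rise. The levels of Day4 and Day7 differed by -0.30 ± 0.20, less than 2-fold, and by 1.02 without normalization.

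Nkx2-2, the homeodomain factor that marks p3, stood at 8.47 in ES, 6.28 on Day2 and 7.45 on Day3, then 7.92 on Day4 and 11.01 on Day7. It was highest on Day7, 8.52-fold above Day4 (3.09 ± 0.21) and 5.83-fold above ES. The Day3 level was 2.03-fold under that in ES (-1.02, and -0.77 with normexp). Its second probe was not detected on the first 4 arrays and stood at 9.11 on Day7. The step from ES to Day2 was a 4.56-fold fall and that from Day2 to Day3 a 2.25-fold rise (1.17), and both rest on the Day2 array. The second of these passed 2-fold under 4 of 10 alternatives. It was 0.24 with arrays aligned at their 75th percentile, 0.72 with normexp, 0.06 when bounded by the ERCC level and -0.50 without normalization. The part of the Day2 array's raised dim signal in these steps was not tested. From Day3 to Day4, when Olig2 and Nkx6-1 rose, Nkx2-2 differed by 0.47 ± 0.21, less than 2-fold. The mean over both probes passed 2-fold (1.28), but the second probe was not detected on either array, so this value is not a measured rise.

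**Figure D1:**
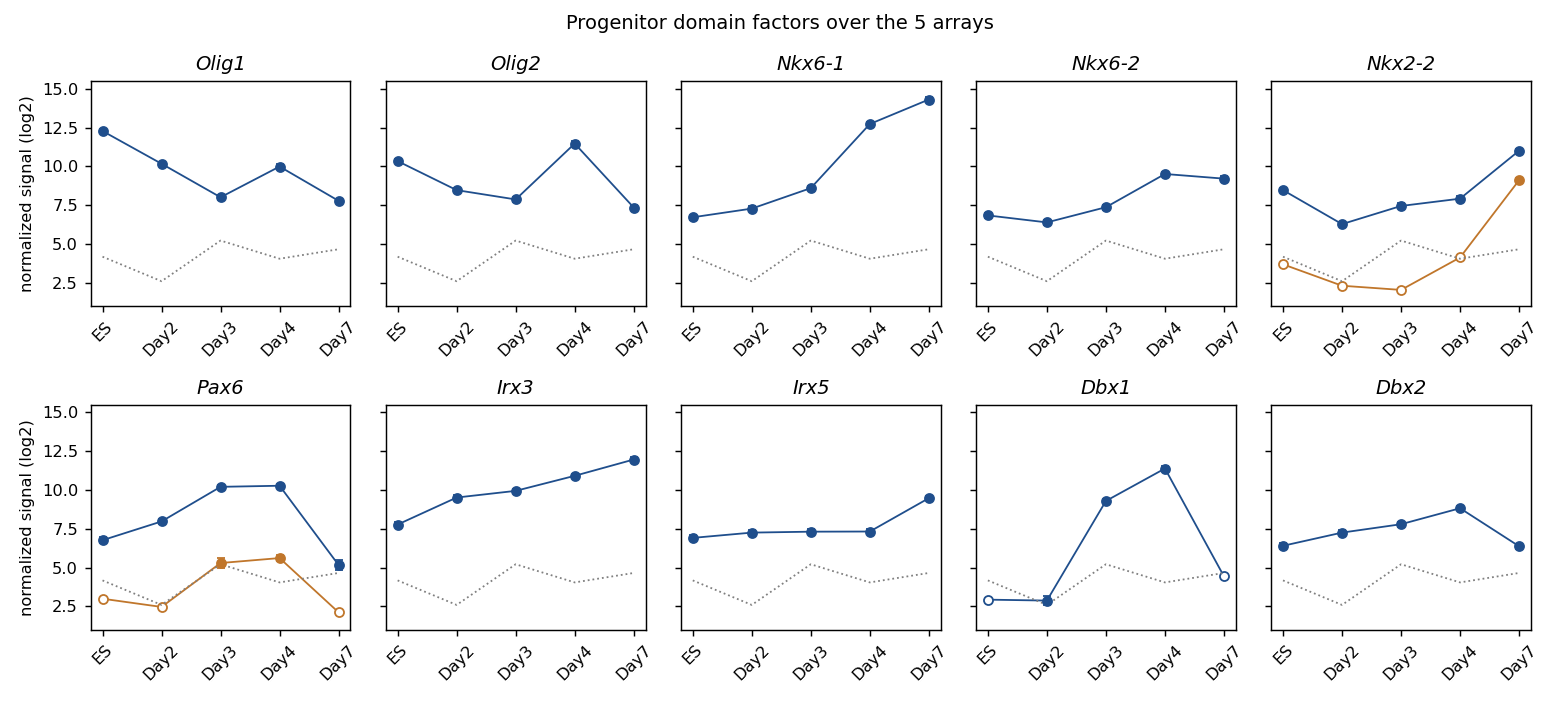
Normalized signal (log2, y axis) of the 10 factors on the 5 arrays (x axis), 1 array per time point. Blue points are the brightest probe of a gene, orange points the second probe of Pax6 and Nkx2-2, filled points detected values with the scanner error as bars, open points values not well above background, and the dotted line the lowest level of any detected probe on that array. Olig2, Nkx6-2, Dbx1, Dbx2 and Pax6 were highest on Day4, Nkx6-1, Nkx2-2, Irx3 and Irx5 on Day7 and Olig1 in ES.

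Pax6, a paired-type homeodomain factor of neural progenitors that is excluded from p3, stood at 6.77 in ES, 7.98 on Day2 and 10.21 on Day3, then 10.28 on Day4 and 5.17 on Day7. It was on a plateau over Day3 and Day4, which differed by 0.07 ± 0.20. It rose 2.32-fold from ES to Day2, a call that was lost with normexp background correction and with the mean over both probes (0.34), of which the second was not detected on these arrays, and 4.68-fold from Day2 to Day3. From Day4 to Day7 it fell 34.5-fold (-5.11 ± 0.34), the 7th largest fall of all genes with a value, to a level 3.02-fold under that of ESCs (-1.60, and -0.75 with normexp). The second probe was dim. It was detected on Day3 and Day4 only, at 5.30 and 5.62, and gives only a bound of -0.96 on the log2 scale for the last step, short of 2-fold.

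Irx3, a homeobox factor that restricts pMN dorsally, stood at 7.78 in ES, 9.52 on Day2 and 9.95 on Day3, then 10.92 on Day4 and 11.97 on Day7. With normalization it was higher on each array than on the one before, and it ended 18.2-fold above ES (4.19 ± 0.21). The first step was 3.34-fold within 8 h of RA and rests on the Day2 array. Without normalization, the step from Day2 to Day3 was -0.29, and the first and last steps were 2.06 and 2.25 on the log2 scale. The last one, 2.06-fold from Day4 to Day7, lay close to the threshold and was 0.93 under the 75th percentile alignment. Irx5, a member of the same gene cluster, stood at 6.92 in ES, 7.26 on Day2 and 7.32 on Day3, then 7.33 on Day4 and 9.48 on Day7. With normalization its levels from Day2 to Day4 differed by less than the scanner error, and of its steps only that from Day4 to Day7 passed 2-fold, with a 4.42-fold rise. Without normalization its first step was 1.13 and its second -1.29, both past 2-fold.

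Dbx1, the homeodomain factor that marks p0, was not detected in ES (2.94), stood at 2.88 on Day2, 9.30 on Day3 and 11.39 on Day4, and was not detected on Day7 (4.44). It was high on Day3 and Day4 only. Day4 was 4.26-fold above Day3 and, set against the lowest detected level in ES, at least 148-fold above ES (7.21 on the log2 scale). This bound was 4.81 against the ERCC level in ES and 4.77 with normexp. From Day4 to Day7 it fell at least 107-fold (-6.74, and -4.74 with normexp). The step from Day2 to Day3, 6.42 on the log2 scale, was 1.91 when values were bounded by the level of the ERCC probes, which was 7.39 on Day2 against 4.74 to 6.58 on the other arrays.

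Dbx2, the relative of Dbx1 expressed in p0 and p1, stood at 6.41 in ES, 7.26 on Day2 and 7.80 on Day3, then 8.83 on Day4 and 6.38 on Day7. It was highest on Day4, like Dbx1, over a smaller range. Day4 was 5.37-fold above ES and 2.04-fold above Day3, the latter 0.70 on the log2 scale at its lowest under other settings. From Day4 to Day7 the signal fell 5.47-fold, back to the ES level, from which Day7 differed by -0.03 ± 0.25.

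Counted over the steps, 2 members rose from ES to Day2 (Pax6 and Irx3) and 3 fell (Olig1, Olig2 and Nkx2-2), while 10.7% of all genes with a value rose and 11.3% fell. Over the next step, Day2 to Day3, 4 rose (Pax6, Dbx1, Nkx6-1 and Nkx2-2) and 1 fell (Olig1), against 13.0% and 7.76% of all genes. Both steps share the Day2 array and moved with the scaling. With the arrays aligned at their 75th percentile, 4 members rose and 3 fell from ES to Day2, against 20.9% and 7.0% of all genes, and 2 rose (Pax6 and Dbx1) and 1 fell from Day2 to Day3, against 5.81% and 17.0%. From Day3 to Day4, 6 of 10 rose (Olig1, Olig2, Dbx1, Dbx2, Nkx6-1 and Nkx6-2) and 0 fell, in a step in which 3.62% of all genes rose and 4.87% fell. From Day4 to Day7, 4 rose (Irx3, Irx5, Nkx6-1 and Nkx2-2) and 5 fell (Olig1, Olig2, Pax6, Dbx1 and Dbx2), against 18.1% of all genes in each direction. The members' median change was 1.51 from Day3 to Day4, and that of all genes -0.01. In the last step Nkx6-2 alone differed by less than 2-fold, and the median change was -1.26 against -0.12.

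**Figure D2:**
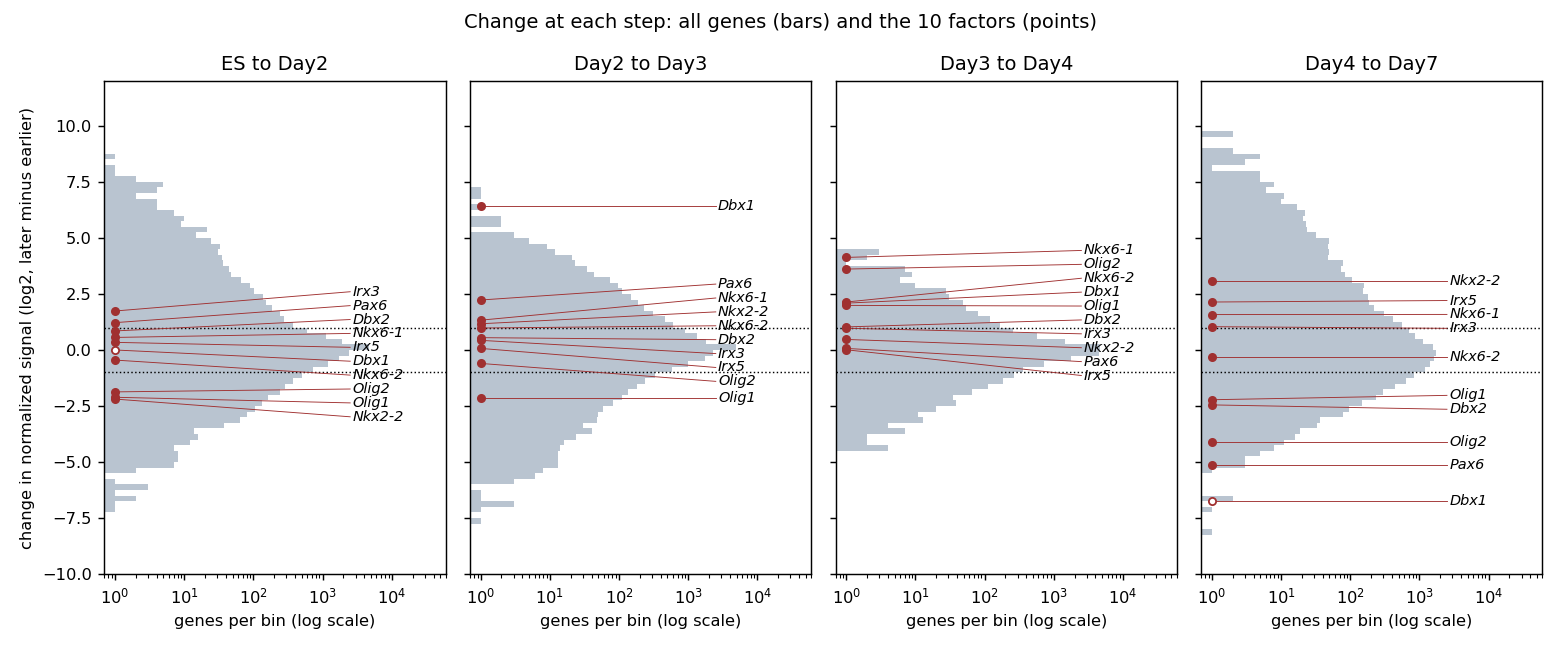
Change in normalized signal at each step (log2, later minus earlier, y axis). Grey bars count all genes with a value in bins of the change (x axis, log scale), red points are the 10 factors with lines leading to their names, and open points are bounds or, for Dbx1 from ES to Day2, no fold. Dotted lines mark 2-fold. From Day3 to Day4 Nkx6-1 (4.13) and Olig2 (3.61) lie near the upper end of all genes, and from Day4 to Day7 Dbx1, Pax6 and Olig2 lie near the lower end.

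Seen from the ESCs, 5 members were higher on Day3 (Pax6, Irx3, Dbx1, Dbx2 and Nkx6-1) and 3 lower (Olig1, Olig2 and Nkx2-2), against 15.6% and 10.2% of all genes, or 14.0% and 15.1% under the 75th percentile alignment. On Day4, 7 were higher (Olig2, Pax6, Irx3, Dbx1, Dbx2, Nkx6-1 and Nkx6-2) and 1 lower (Olig1), against 17.0% and 14.4%. On Day7, 5 of the 9 with a value were higher (Irx3, Irx5, Nkx6-1, Nkx6-2 and Nkx2-2) and 3 lower (Olig1, Olig2 and Pax6), against 24.8% and 24.4%. Day4 thus held raised levels of the markers of p0 (Dbx1) and pMN (Olig2) and of both Nkx6 genes, with Nkx2-2 of p3 within 2-fold of its ES level (-0.55, and -1.49 without normalization). On Day7 Nkx2-2 was raised, the markers of p0 and pMN were not, and Irx3 and Nkx6-1 were at their highest. The arrays do not show which of these factors shared a cell.

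Markers of the cells born from each domain were read from lists of named genes. Of the 6 matched motor neuron genes all 6 rose from Day4 to Day7, a step in which 18.1% of all genes rose and 18.1% fell, with a median change of 4.62, and all 6 passed 2-fold under each alternative normalization, filter and choice of probe tried. Isl1, a LIM homeodomain factor, stood at 7.18, 5.94, 5.34, 8.19 and 13.25 in time order, and Slc18a3, the vesicular acetylcholine transporter, at 8.56, 8.52, 9.08, 9.58 and 15.54. Motor neuron genes were thus highest on Day7, after the Olig2 peak on Day4. Of the V3 genes, Sim1 was detected on Day7 only (8.60), the array with the highest Nkx2-2. Nkx2-9, a p3 factor related to Nkx2-2, stood at 8.28, 9.29, 9.91, 12.89 and 10.23 in time order. It was thus highest on Day4 and fell to Day7, the step in which Nkx2-2 rose. Of the V2 genes, Vsx1 was detected on no array. En1, which marks V1 neurons, was detected on no array. Foxd3, also listed for V1, was highest in ES at 10.37 and stood at 4.72 on Day4 and 6.09 on Day7. Its rise from Day4 to Day7 was 1.37 on the log2 scale, and 0.59 with normexp. Evx1, which marks V0 neurons, stood at 5.98 in ES, 5.02 on Day4 and 6.11 on Day7. From Day4 to Day7 it rose by 1.09 on the log2 scale, a call that was lost with normexp background correction. Its levels in ES and on Day7 were within 2-fold of each other.

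**Figure D3:**
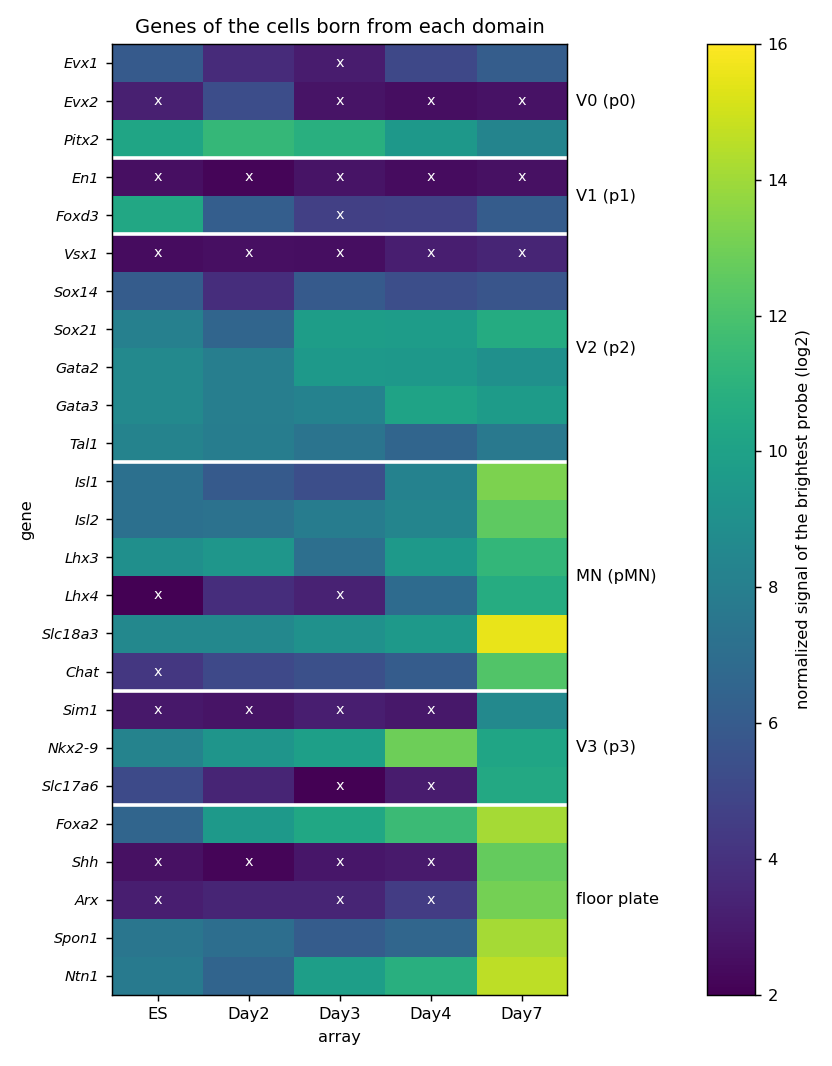
Normalized signal (log2, colour) of matched genes of the cells born from each domain and of the floor plate (rows) on the 5 arrays (columns), with an x where the probe was not well above background. Colours compare arrays within a row, not genes, and not every gene of the lists is shown. Motor neuron and floor plate genes were brightest on Day7, and the V1 marker En1 was detected on no array.

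Floor plate genes moved with Nkx2-2 and Nkx6-1 in the last step. All 5 rose from Day4 to Day7 (median 7.47), against 18.1% of all genes, and at least 3 passed 2-fold under each alternative normalization, filter and choice of probe. Shh, the ligand itself, was not detected on the first 4 arrays and stood at 12.71 on Day7, and Foxa2, a forkhead factor of the floor plate, stood at 6.59, 9.55, 10.36, 11.52 and 14.12 in time order. The part of floor plate cells in the Nkx2-2 and Nkx6-1 signals was not tested. Cell type markers were counted over the same step, in which 18.1% of all genes rose and as large a share fell. Of 7 pan-neuronal genes 6 rose, and of 6 neural progenitor genes 2 rose (Fabp7 and Vim), with 0 falls in both lists. All 5 spinal motor neuron genes rose. Of 6 ES cell genes 3 fell, and all 6 were detected on the ES and the Day7 array. Without normalization 0 of these 6 fell and 2 rose, where 52.1% of all genes rose and 3.33% fell. All 3 endoderm genes with a value fell. Of 3 mesoderm genes with a value 2 fell, of 4 serotonergic genes 1 rose, of 4 astrocyte genes 2 rose and of 2 pancreatic islet genes 1 fell. Of the 6 genes of the oligodendrocyte lineage, in which Olig1, Olig2 and Nkx2-2 also act, 0 rose and 0 fell from Day4 to Day7. Without normalization, 4 of these 6 genes and 5 of the 6 neural progenitor genes rose. Under that setting 0 mesoderm and 0 islet genes fell, and 1 islet gene rose.

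Hedgehog signalling genes, which include the Gli factors, the receptor Ptch1 and the coreceptors Boc and Gas1, were higher on Day4 than in ES for 8 of 10, against 17.0% of all genes, and 8 of 10 fell from Day4 to Day7 (median -1.90), against 18.1%, a step over which the labels leave unclear when RA and Shh were withdrawn. Gli1, a transcriptional readout of the pathway, stood at 11.88 in ES, 12.81 on Day4 and 9.89 on Day7, and Ptch1 at 8.19, 10.15 and 8.05. Gli1 was not among the 8 genes higher on Day4, as it differed from ES by 0.93, less than 2-fold. Without normalization the counts of Hedgehog genes higher on Day4 and lower on Day7 were 4 and 4, against 5.55% and 3.33% of all genes. Of the members, 5 fell from Day4 to Day7, Olig2 and both Dbx genes among them, against 18.1% of all genes. Another 4 rose, Nkx6-1 and Nkx2-2 among them, against 18.1%. A link of these changes to the pathway was not tested. Of 17 other progenitor factors, 15 had a value from Day4 to Day7, of which 5 rose and 7 fell, against 18.1% of all genes in each direction. Neurog2, a proneural factor downstream of Olig2, shared its Day4 high with 10.37, against 6.02 on Day3 and 7.06 on Day7. Among family relatives, 5 of 11 rose and 4 fell in this step, against the same shares of all genes. Irx1 and Irx2 stood at 13.15 and 11.57 on Day7 against 9.95 and 8.57 on Day4.

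As a description over 5 arrays, the genes whose centred profile lay nearest to that of Olig2 among 18625 candidates were Bex6 (root mean square difference 0.53 on the log2 scale), Fgf15, Gbp2, Krt42 and Iqub (0.77). Those nearest to Nkx2-2 were Vmn1r168 (0.19), Insl5, Zkscan2, Pik3r1 and Serpinb6b (0.33). Olig2 thus had less close matches than Nkx2-2 did.

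**Figure D4:**
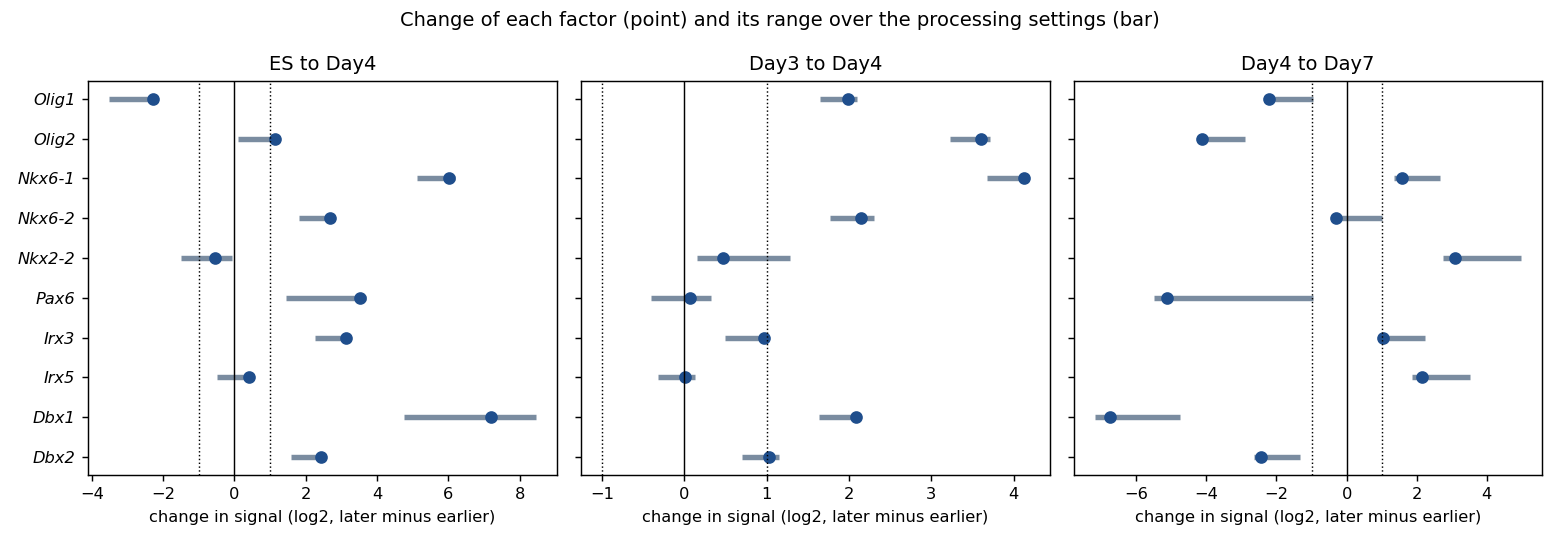
Change of each factor (log2, later minus earlier, x axis) from ES to Day4, Day3 to Day4 and Day4 to Day7. Points are the values given in the text and bars the range over the processing settings, including bounds and the second probes of Pax6 and Nkx2-2. Dotted lines mark 2-fold. From Day3 to Day4, Olig1, Olig2, Nkx6-1, Nkx6-2 and Dbx1 stay past 2-fold over the whole bar, while Dbx2 does not.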

How the data were processed

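RNA of the 5 samples was hybridised to Agilent SurePrint one-colour arrays. The authors deposited the scanner output, which holds the intensity of each spot after background subtraction by Agilent Feature Extraction 10.5.1 (per the labels), with other columns of flags and error estimates. A further deposited table gives log2 values, which equalled the log2 processed intensity minus each array's 75th percentile for 100.0% of probes within 0.01. Control and outlier spots were removed, log2 intensities averaged per probe, and arrays quantile-normalized (limma 3.58.1, R 4.3.3), after the method named in the study's legend. Later steps used Python 3.11.15, numpy 2.4.6, pandas 2.3.3 and matplotlib 3.10.9.

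Probes were named through RefSeq accessions (GRCm38.p6, names and gene order only). The probe brightest on average stood for its gene. A probe not well above background took the lowest detected value of that array (2.60 to 5.22) where its own was lower, which gives bounds, and a gene detected on neither array of a comparison had no value. No test was possible with 1 array per time point, and the number of arrays limits the precision. The steps were tested on simulated data. Members, named genes (the 10 members, genes of listed families, domains, Hedgehog signalling and cell types, and nearest profiles) and lists were chosen with earlier results of these data known. Mnx1 had no matched probe and is not analysed here, and a few other genes and counts of these lists are not reported here. Alternatives tried were a 75th percentile shift, no normalization, normexp with an offset of 50 (on median spot signals), the authors' own log2 table, a second scanner flag for detection, dim probes kept as measured, detection on both arrays, bounds at the 95th percentile of ERCC probes, the mean over probes, the second probes, and thresholds of 1.5-fold and 4-fold. Leaving Day2 or Day7 out of the normalization was added after seeing the data.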

Additional observations from a re-analysis of the deposited data

How the results depend on the processing

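The number of members that rose from ES to Day2, 2 as reported, was 4 after the 75th percentile shift and with the deposited values, 5 without normalization, 1 with normexp, with the mean over probes and with the second probes, and 0 at 4-fold. From Day2 to Day3, 4 rose and 1 fell as reported, against 2 and 1 after the 75th percentile shift and with the deposited values, and 2 and 3 without normalization, where 1.41% of all genes rose and 39.4% fell. The number that rose from ES to Day3 was 3 at 4-fold, against 5, and from Day4 to Day7 it was 2 at 4-fold, against 4. Nkx2-2 from Day2 to Day3 was the only called change of a member that reversed (-0.50 without normalization, against 1.17). Other listed genes named with changes were checked only over comparisons without the Day2 array, where 0 reversed. With no normalization, all genes together moved by a median of 1.06 from Day4 to Day7, where 52.1% of genes then rose and 3.33% fell, and by -1.06 from ES to Day4, where 5.55% rose and 52.7% fell. The shares for Day3 to Day4 were then 2.5% up and 9.95% down, and those for ES to Day3 7.17% up and 32.9% down. The cause of these differences was not tested. No paired analysis was possible because there was a single array a group, and no replicate could be left out. A block for the slide was not run, since Day7 alone held the second slide. Dim probes limit the changes of Dbx1 against ES (to Day3 and Day4) and from Day4 to Day7 to bounds.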

Other observations

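Neighbours were read only among protein-coding genes with a matched probe. Around Olig2 and Olig1 on chromosome 16, the nearest such genes did not rise from Day3 to Day4 as the pair did. Paxbp1 stood at 10.95, 10.73, 10.27, 10.29 and 10.53 from ES to Day7, and Ifnar2 at 10.67, 10.11, 10.32, 10.29 and 9.78. 4932438H23Rik, the nearest such gene to Olig2, was detected on no array. Around Irx3 and Irx5 on chromosome 8, Fto, the nearest such gene to Irx3, stood at 10.38, 10.77, 11.55, 11.69 and 11.75. Irx6, the nearest such gene to Irx5, stood at 8.03, 6.95, 7.68, 5.73 and 6.96. Irx6 was thus not highest on Day7 as Irx3 and Irx5 were. Endoderm genes were not absent from the embryoid bodies: Gata6 stood at 10.43 on Day4, against 6.17 in ES and 6.59 on Day7, and Sox17 at 8.96 on Day4, without detection on Day7.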
